A study of Homo sapiens with 18 samples.

Results

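Guide 2 was set against guide 1 in BJ cells, a line of human skin fibroblasts in which either guide RNA was aimed at the long noncoding RNA PURPL. The comparison took the 6 libraries of the knockdown table that carry the names sgRNA-PURPL#1 and sgRNA-PURPL#2 (3 each, here guide 1 and guide 2), of 18 libraries in the series, and covered all genes. Of the 61544 genes in the table, 13923 had enough counts to be tested. The other groups were sgCtrl, a control guide (3 libraries), and 3 groups of a separate overexpression experiment, Ctrl, PURPL#1-OE and PURPL#2-OE (3 libraries each). All groups were cultured BJ cells with no treatment or time point given, and their RNA was selected for poly(A) tails before sequencing. The labels name neither the repressor that the guides steer nor the vector, and they do not say whether a guide's cells were a pool or 1 clone, or whether replicates were separate cultures. A difference between the guides therefore cannot be told apart from a difference between the cultures that carried them, and every p-value here rests on the scatter among 3 libraries a group, which may be technical.

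In CRISPR interference a guide RNA brings an inactive Cas9, often fused to a repressor domain, to a promoter and lowers transcription there. Guides against the same gene share the intended target but not their other binding sites, so comparing them separates changes that both guides bring from changes that come with 1 guide. PURPL is a long noncoding RNA, and dermal fibroblasts are the skin cells that make collagen, contract the matrix and, on stress or exhaustion, leave the cell cycle in senescence.

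The libraries held 11444513 to 12886456 counts with guide 1 and 11978001 to 12896040 with guide 2, so depth did not part the guides. Pearson's correlation of log2 levels across genes was 0.995 to 0.996 between libraries of the same guide and 0.992 between guides in every pair. The first principal component of the 6 libraries held 44.7% of the variance and parted the guides. Mitochondrial transcripts took 5.06% to 5.45% of counts with guide 1 and 4.78% to 4.99% with guide 2, ranges that do not overlap. Their part in the results was not tested. All 12 fibroblast markers had counts, and their summed level, in library-scaled read counts (CPM), was 19609 to 19718 with guide 1 and 18940 to 19544 with guide 2. These ranges do not overlap. Of the 12, COL1A1 was higher with guide 2 and DCN, LUM, S100A4 and PDGFRA were lower, the last 2 of which overlap a neighbour, a share of 41.7%. LUM no longer passed with a replicate block in the fit, or when any of the 6 guide libraries was left out. PDGFRA no longer passed without guide 1 replicate 2, or without either the first or the last replicate of guide 2. The share of 41.7% therefore depends on the libraries fitted. Melanocyte markers summed to 70.7 to 77.2 CPM with guide 1, 51.8 to 58.4 CPM with guide 2 and 50.7 to 60.9 CPM with sgCtrl, nearly all of it MITF. The keratinocyte genes KRT1 and KRT14, the leukocyte genes CD3E and LYZ and the melanocyte gene SOX10 had 0 counts in all 9 libraries of the knockdown table.

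PURPL itself was lower with both guides than with sgCtrl. It measured 17.9, 15.2 and 14.1 CPM with guide 1 against 19.0, 21.5 and 17.9 CPM with guide 2, where sgCtrl measured 71.1, 77.0 and 94.3 CPM. All 6 guide libraries lay far below the control. Every guide 2 library lay above every guide 1 library, though narrowly. The lowest with guide 2 was 17.9285 CPM and the highest with guide 1 was 17.895 CPM. The log2 difference, guide 2 minus guide 1, was 0.30 ± 0.119 (SE, edgeR's quasi-likelihood test, adjusted p = 0.128), so it missed the threshold of 0.05. The call depends on the estimate of spread. It passed when the 6 guide libraries were fitted without sgCtrl (adjusted p = 0.0386), without sgCtrl replicate 1 (0.0468) and without sgCtrl replicate 3 (0.0395).

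ZIM3, a zinc finger gene with a KRAB domain, parted the groups although no guide was named for it. The KRAB domain is a transcriptional repressor, and that of ZIM3 is used in some CRISPR interference constructs. ZIM3 (chr19:57134096-57145202 in hg38, minus strand) measured 92.1 to 97.3 CPM with guide 1, 266, 314 and 323 CPM with guide 2, while sgCtrl stood between at 177, 232 and 182 CPM. The 3 groups did not overlap, guide 1 being lowest and guide 2 highest. The difference was 1.67 ± 0.0920 (adjusted p = 3.14e-10), a 3.18-fold higher level with guide 2. The gene had 21920 counts in the knockdown table and 0 in the 9 libraries of the overexpression table. Whether the reads come from the gene or from a construct cannot be told from counts per gene, and the part of this difference in the results that follow was not tested.

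Across all genes, 1288 of 13923 passed the test (9.25%), 767 of them higher (5.51%) and 521 lower with guide 2 (3.74%). Most differences were small. Of the called genes, 70.8% differed by less than 1.5-fold, and their median absolute log2 difference was 0.40. At least 2-fold differences numbered 122 higher (0.876%) and 42 lower (0.302%). The libraries of both guides did not overlap for 1283 of the 1288 called genes, against 28.4% of all genes tested. Call and overlap come from the same counts, so this is no separate support for the calls. Protein-coding genes passed in 10.1% of 11897 cases and long noncoding RNAs in 4.35% of 1588. A same-strand neighbour overlaps 422 of the called genes, and their counts are uncertain, since how reads in an overlap were assigned is not given in the sources used here. Such genes are named below as overlapping.

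**Figure D1:**
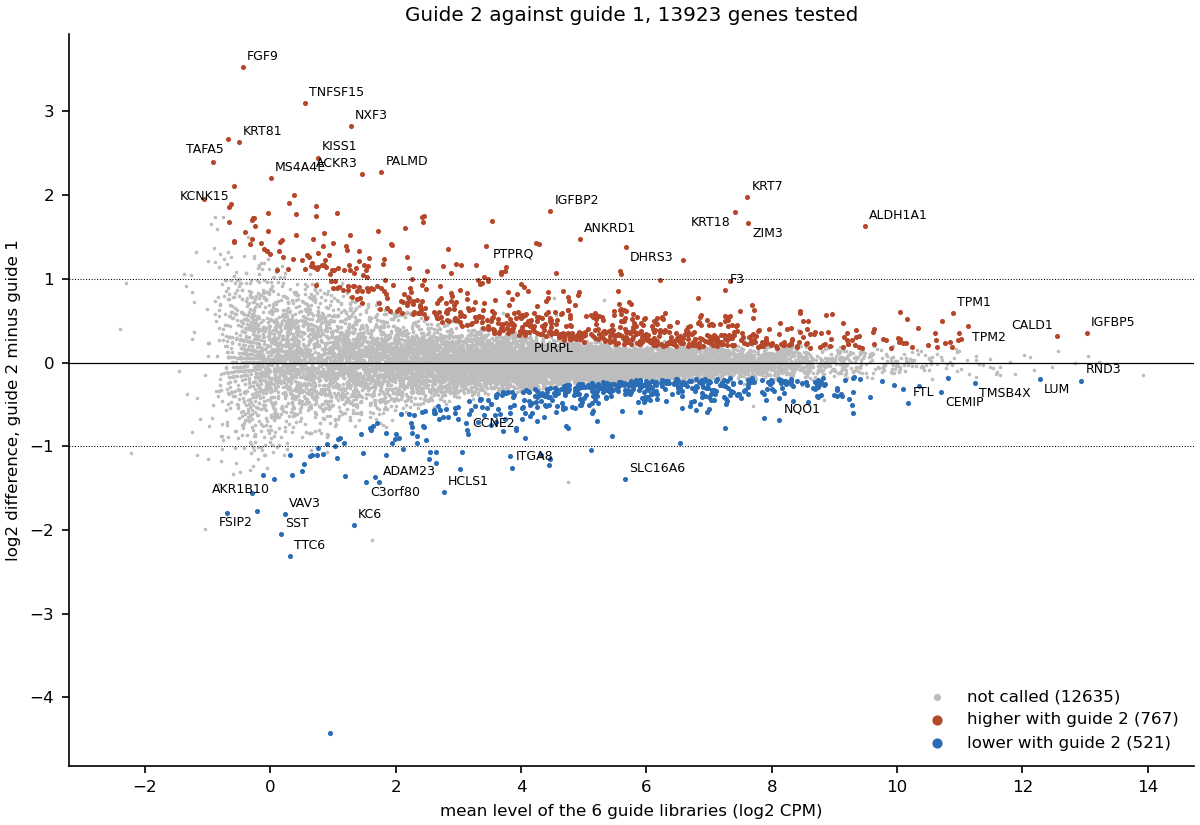
Log2 difference (guide 2 minus guide 1, y axis) against the mean level of the 6 guide libraries (log2 CPM, x axis) for 13923 genes, with called genes in red (767 higher) and blue (521 lower) and dotted lines at 2-fold. The largest differences lie among rare transcripts, while ALDH1A1, KRT7, KRT18, ZIM3 and SLC16A6 stand apart at higher levels.

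Most mitosis genes tested were higher with guide 2 than with guide 1. The share called was 70.6% for mitosis and 5.88% for DNA replication genes, beside 9.25% of all genes. With 2 calls, the DNA replication share is not read as a difference from all genes. Of 34 mitosis genes tested, 24 were higher and 0 lower with guide 2, with a median log2 difference of 0.37 against 0.000452 over all genes. The count of higher mitosis genes was 17 without guide 1 replicate 2 or 3, and 19 to 21 without any other guide library. Of 34 DNA replication genes, 1 was higher and 1 lower, with a median of -0.07, and 0 passed without guide 1 replicate 2 or guide 2 replicate 3. Both medians lay below sgCtrl with either guide. The mitosis median was -0.94 with guide 1 and -0.57 with guide 2 against sgCtrl, and the DNA replication median was -0.54 and -0.59 (the 2 contrasts share the sgCtrl libraries).

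ANLN, a scaffold of the cytokinetic ring, measured 129, 129 and 134 CPM with guide 1 against 193, 197 and 186 CPM with guide 2, where sgCtrl measured 277, 305 and 334 CPM. Both guides lay below the control, without overlap, and guide 2 lay between guide 1 and sgCtrl. The difference was 0.56 ± 0.0649 (adjusted p = 3.21e-07). KIF20A, a kinesin of the central spindle, stood in the same order at 22.6, 23.3 and 21.1 CPM with guide 1 against 36.8, 33.8 and 37.4 CPM with guide 2 (0.69 ± 0.0829). AURKA, the kinase of spindle poles, and DLGAP5, a spindle microtubule protein, were higher by 0.57 ± 0.0752 and 0.54 ± 0.0758. The proliferation marker MKI67 was 0.33 ± 0.0979 higher (adjusted p = 0.0438), a call lost when any of the 6 guide libraries or sgCtrl replicate 2 was left out.

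Not every mitotic gene differed. CCNA2, the cyclin of S phase and G2, measured 41.0, 41.1 and 40.7 CPM with guide 1 against 40.2, 43.5 and 42.9 CPM with guide 2 (0.04, adjusted p = 0.81). CDK1, the kinase that drives entry into mitosis, differed by 0.14 ± 0.0931 (adjusted p = 0.442). Among replication genes, TK1, a thymidine kinase, was higher by 0.42 ± 0.106 (adjusted p = 0.00927), and MCM4, a subunit of the replicative helicase, was lower by a log2 difference of -0.28 ± 0.0709 (adjusted p = 0.00942). Leaving out guide 1 replicate 2 or guide 2 replicate 3 ended both calls, and that of MCM4 also ended without guide 1 replicate 3 or guide 2 replicate 1. CCNE2, an E-type cyclin that acts before S phase, went the other way from the mitosis list. It measured 11.7, 11.2 and 11.6 CPM with guide 1 against 6.44, 5.88 and 6.65 CPM with guide 2 (-0.86 ± 0.125, adjusted p = 1.18e-05), where sgCtrl measured 18.0 to 18.8 CPM.

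Many late cell cycle promoters carry a cell cycle homology region (CHR), to which the DREAM and MuvB complexes bind. Its letters TTTGAA were searched on both strands of RefSeq's promoter windows in GRCh38.p14, which run from 250 bases before to 50 after a gene's start. The letters occurred in 15.4% of 27305 promoters, in 20 of the 28 mitosis genes with a window and in 1 of 30 DNA replication genes. They were in 14 of the 19 called mitosis genes with a window and in 6 of the 9 others, so the match did not part members that passed from those that missed. The 250 bases before the starts of ANLN (chr7:36389612-36389861, plus strand) and DLGAP5 (chr14:55191586-55191835, minus strand) are shown. These genes had the smallest adjusted p among called mitosis genes with a match. Each holds 2 matches in that stretch, in capitals. In ANLN the matches adjoin at positions -26 and -20, and in DLGAP5 they begin at -138 and -109, with another at 4, past the start. A match describes the letters and is no evidence of binding.
ANLN: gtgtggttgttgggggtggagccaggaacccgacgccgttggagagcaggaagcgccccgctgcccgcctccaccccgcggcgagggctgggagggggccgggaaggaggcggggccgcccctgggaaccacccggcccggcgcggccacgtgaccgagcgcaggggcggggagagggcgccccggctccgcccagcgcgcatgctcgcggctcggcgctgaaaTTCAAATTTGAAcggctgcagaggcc
DLGAP5: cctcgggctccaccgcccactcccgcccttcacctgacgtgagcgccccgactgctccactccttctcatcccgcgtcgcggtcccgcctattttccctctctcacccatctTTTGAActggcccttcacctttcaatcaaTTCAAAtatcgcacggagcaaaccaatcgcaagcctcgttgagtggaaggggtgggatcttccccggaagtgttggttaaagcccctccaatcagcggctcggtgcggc

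Part of the interferon response genes were higher with guide 2. Of 38 tested, 19 were higher and 0 lower, with a median of 0.21. The count fell to 11 or 12 when guide 1 replicate 1 (12), guide 1 replicate 2 (11), guide 1 replicate 3 (12) or guide 2 replicate 3 (12) was left out. IFIT2, which binds viral RNA and overlaps a neighbour, measured 149, 163 and 159 CPM with guide 1 against 250, 246 and 263 CPM with guide 2, where sgCtrl measured 98.6 to 119 CPM (0.69 ± 0.0649, adjusted p = 6.57e-09). The related IFIT3, also overlapping, measured 379, 375 and 369 CPM with guide 1 against 538, 562 and 571 CPM with guide 2 (0.57 ± 0.0556), while sgCtrl stood at 361 to 386 CPM, within reach of guide 1. IFIT1 was higher by 0.47 ± 0.0566 and IFI44L by 0.45 ± 0.0606.

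The interferon group was not uniform. IFI6, an interferon-induced protein of mitochondria whose gene overlaps a neighbour, measured 401, 398 and 400 CPM with guide 1 against 396, 418 and 423 CPM with guide 2 (0.04, adjusted p = 0.813). ISG15, a ubiquitin-like modifier, differed by 0.21 ± 0.0816 (adjusted p = 0.134). Antigen presentation genes, many of which interferon also induces, had 0 calls in 15 tested, 1 at an unadjusted p under 0.05 and 0 with DESeq2. Of 12 inflammatory secreted factors 0 passed (4 at an unadjusted p under 0.05, 0 with DESeq2), the cytokine IL6 at 0.778, 1.35 and 1.39 against 2.07, 1.59 and 1.96 CPM being among those that missed (0.68, adjusted p = 0.234). Beside the 9.25% of all genes called, 0 calls in lists of 15 and 12 are not read as a difference from all genes.

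The interferon-stimulated response element (ISRE), a motif of promoters that interferon switches on, was searched as GAAA, any 2 bases and GAAA, on both strands. It occurred in 3.65% of all promoters and in 19 of 29 interferon response genes with a window, 8 of the 14 called and 11 of the 15 not called. The match thus did not mark the members that differed between guides. IFIT3 (chr10:89327747-89327996, plus strand) and IFIT1 (chr10:89392373-89392622, plus strand) are shown with 2 matches each in capitals, beginning at -156 and -122 in IFIT3 and at -116 and -103 in IFIT1. All 4 lie on the reverse strand.
IFIT3: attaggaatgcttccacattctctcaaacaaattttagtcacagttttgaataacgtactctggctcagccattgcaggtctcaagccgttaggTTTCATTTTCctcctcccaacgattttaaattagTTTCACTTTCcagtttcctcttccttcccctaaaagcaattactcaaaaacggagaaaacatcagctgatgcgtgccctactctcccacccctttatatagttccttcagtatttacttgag
IFIT1: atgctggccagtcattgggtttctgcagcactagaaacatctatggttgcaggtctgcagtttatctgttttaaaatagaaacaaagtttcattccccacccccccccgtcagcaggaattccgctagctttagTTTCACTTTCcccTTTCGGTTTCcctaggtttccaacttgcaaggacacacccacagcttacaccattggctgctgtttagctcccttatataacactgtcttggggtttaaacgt

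**Figure D2:**
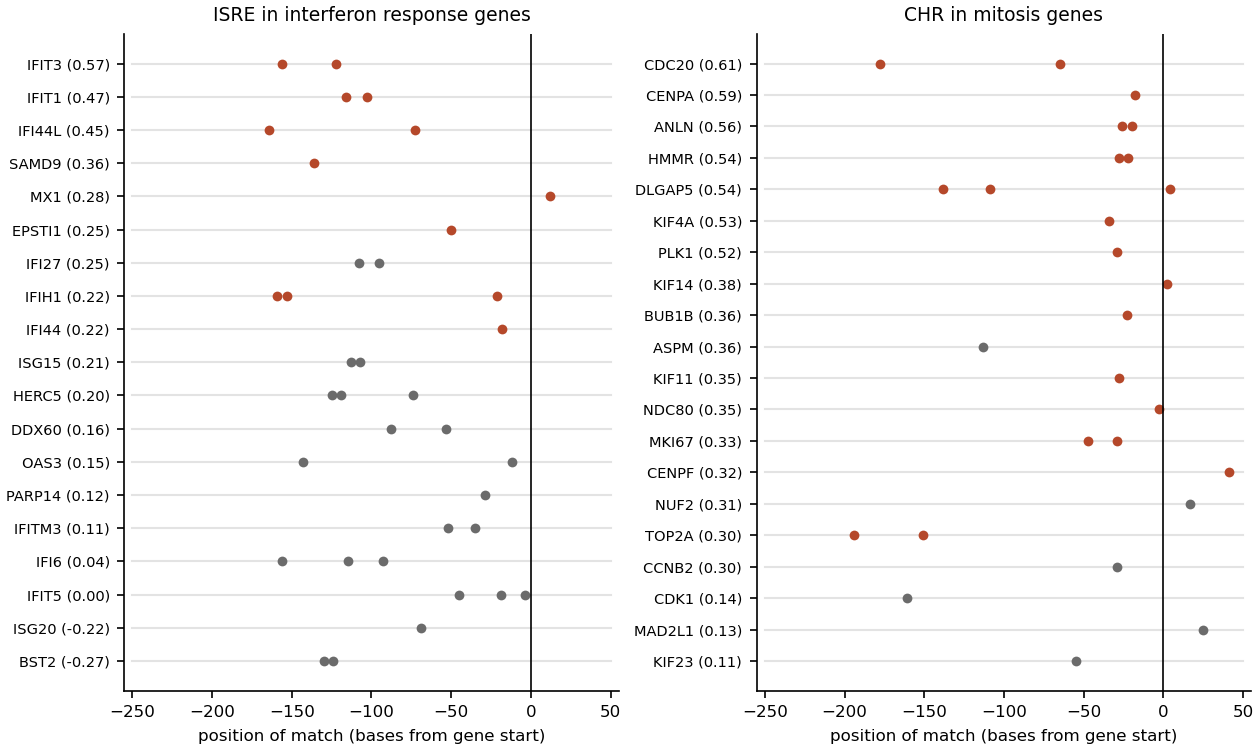
Position of each match (x axis, bases from the gene's start, window from 250 before to 50 after) to the interferon-stimulated response element in 19 interferon response genes and to the cell cycle homology region in 20 mitosis genes, with the log2 difference, guide 2 minus guide 1, in brackets. Red points are called genes, grey points the others, and both kinds hold matches at similar distances.

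Most contractile genes tested were higher with guide 2. These genes encode the actin cables and their regulators by which fibroblasts pull on the matrix. Of 14 tested, 10 were higher and 0 lower, with a median of 0.30. TPM1, a tropomyosin of actin filaments, measured 1550, 1444 and 1558 CPM with guide 1 against 2253, 2294 and 2320 CPM with guide 2 (0.59 ± 0.0564, adjusted p = 7.64e-09). The sgCtrl libraries lay between, at 1770 to 1903 CPM. TAGLN, an actin bundling protein that overlaps a neighbour, CNN1, a calponin, and LMOD1, a nucleator of actin filaments, were higher by 0.53 ± 0.0674, 0.54 ± 0.0839 and 0.55 ± 0.0748. ACTA2, the smooth muscle actin that marks myofibroblasts and another overlapping gene, measured 23.9, 27.0 and 25.6 CPM with guide 1 against 30.1, 22.9 and 28.8 CPM with guide 2 and did not pass (0.10, adjusted p = 0.63). The summed smooth muscle and pericyte markers were 137 to 159 CPM with guide 1 and 186 to 216 CPM with guide 2, beside 171 to 189 CPM with sgCtrl. Most of that difference was LMOD1, which stands in both lists (87.5 to 103 CPM and 130.3 to 151 CPM). Of the 5 markers tested, LMOD1 and MCAM, which overlaps a neighbour (0.99), passed, while CSPG4 (0.13), RGS5 (-0.00246) and NOTCH3 (-0.30) missed the threshold. DES and ACTG2 had 6 and 1 counts over 9 libraries, and the part of these markers in the result was not tested.

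TGF-beta and YAP with TEAD both act in fibroblast activation, and part of the genes that respond to them were higher. Of 19 TGF-beta responsive genes 9 were higher and 0 lower (median 0.28), and of 21 YAP and TEAD targets 13 were higher and 1 lower (median 0.40). The lists share CCN2 and TGFB2, so they are not separate evidence. Without members that overlap a neighbour on the same strand, the YAP and TEAD count was 8 higher and 1 lower of 13. ANKRD1, a stretch-induced nuclear protein, measured 14.8, 17.2 and 16.8 CPM with guide 1 against 45.6, 46.8 and 43.1 CPM with guide 2, while sgCtrl stood at 13.5 to 15.8 CPM. Guide 2 alone lay above the other libraries, 2.78-fold over guide 1 (1.47 ± 0.0889, adjusted p = 3.38e-13).

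F3, tissue factor of the clotting cascade, measured 113, 107 and 105 CPM with guide 1 against 200, 186 and 208 CPM with guide 2, both below the 284 to 299 CPM of sgCtrl (0.86 ± 0.0615). The ligand gene TGFB2, which overlaps a neighbour, was higher by 0.85 ± 0.0867 and CCN2, a matricellular growth factor, by 0.49 ± 0.0561. ELN, the elastin gene, was above the 53.4 to 58.7 CPM of sgCtrl with both guides, at 285, 279 and 262 CPM with guide 1 against 422, 426 and 419 CPM with guide 2 (0.62 ± 0.0573).

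TEAD factors bind the letters GGAATG, which were found in 14% of all promoters and in 5 of 16 YAP and TEAD targets with a window. They were in 4 of the 11 called members with a window and in 1 of the 5 others. Contractile genes held them in 4 of 11, so the letters were not particular to this list. The promoter of ANKRD1 (chr10:90921088-90921337, minus strand) is shown because this gene had the smallest adjusted p among called members with a match. It also had the largest difference in the list, and its matches begin at -220 and -128.
ANKRD1: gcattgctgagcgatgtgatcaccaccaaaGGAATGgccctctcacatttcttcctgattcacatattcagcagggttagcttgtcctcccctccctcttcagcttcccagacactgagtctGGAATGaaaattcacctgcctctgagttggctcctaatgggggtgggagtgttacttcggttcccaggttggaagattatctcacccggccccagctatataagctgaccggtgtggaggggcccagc

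Part of the sterol, fatty acid and antioxidant genes were lower with guide 2 than with guide 1. Of 22 genes of cholesterol synthesis 0 were higher and 11 lower (median -0.28), of 19 genes of fatty acid synthesis and storage 0 were higher and 8 lower (median -0.16), and of 29 oxidative stress genes 0 were higher and 13 lower (median -0.20). Each of the 9 called genes named from these lists stood above sgCtrl with guide 1, by 0.25 (FASN) to 1.16 (NQO1) on the log2 scale, and with guide 2 they ran from -0.24 (INSIG1) to 0.48 (NQO1). INSIG1, the sterol sensor that holds SREBP in the endoplasmic reticulum, measured 135, 134 and 140 CPM with guide 1, 99.7, 92.1 and 97.5 CPM with guide 2 and 107 to 125 CPM with sgCtrl (-0.50 ± 0.0654, adjusted p = 2.46e-06). IDI1 and HMGCS1, enzymes of cholesterol synthesis, were lower by log2 differences of -0.44 ± 0.0616 and -0.35 ± 0.0571.

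SCD, the desaturase that makes monounsaturated fatty acids, measured 749, 732 and 702 CPM with guide 1 against 495, 521 and 517 CPM with guide 2, where sgCtrl stood at 463 to 516 CPM. Guide 1 lay above all other libraries, 1.42-fold over guide 2 (-0.51 ± 0.0575, adjusted p = 1.96e-07). FASN, fatty acid synthase, was lower by a log2 difference of -0.46 ± 0.0687. Without members that overlap a neighbour, the fatty acid count was 4 lower of 11.

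NQO1, a quinone reductase and a common readout of the factor NRF2, measured 366, 348 and 314 CPM with guide 1, 204, 215 and 221 CPM with guide 2 and 153 CPM in each sgCtrl library. The 3 groups did not overlap (-0.69 ± 0.0612, adjusted p = 2.34e-09). FTL, the light chain of the iron store ferritin, fell from 1320, 1385 and 1353 to 1034, 891 and 985 CPM, with sgCtrl at 836 to 1096 CPM (-0.48 ± 0.0738). ME1 and EPHX1, a malic enzyme and an epoxide hydrolase, had differences of -0.41 ± 0.0589 and -0.38 ± 0.0613. Other NRF2 targets did not follow: GCLM, a subunit of the glutathione synthesis enzyme, stood at 75.3 to 77.8 CPM with guide 1 and 74.9 to 78.1 CPM with guide 2 (-0.00319, adjusted p = 0.988). HMOX1, heme oxygenase, differed by -0.05 (adjusted p = 0.769). The oxidative stress count was 8 without guide 1 replicate 2, 6 without guide 2 replicate 2 and 8 without guide 2 replicate 3.

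**Figure D3:**
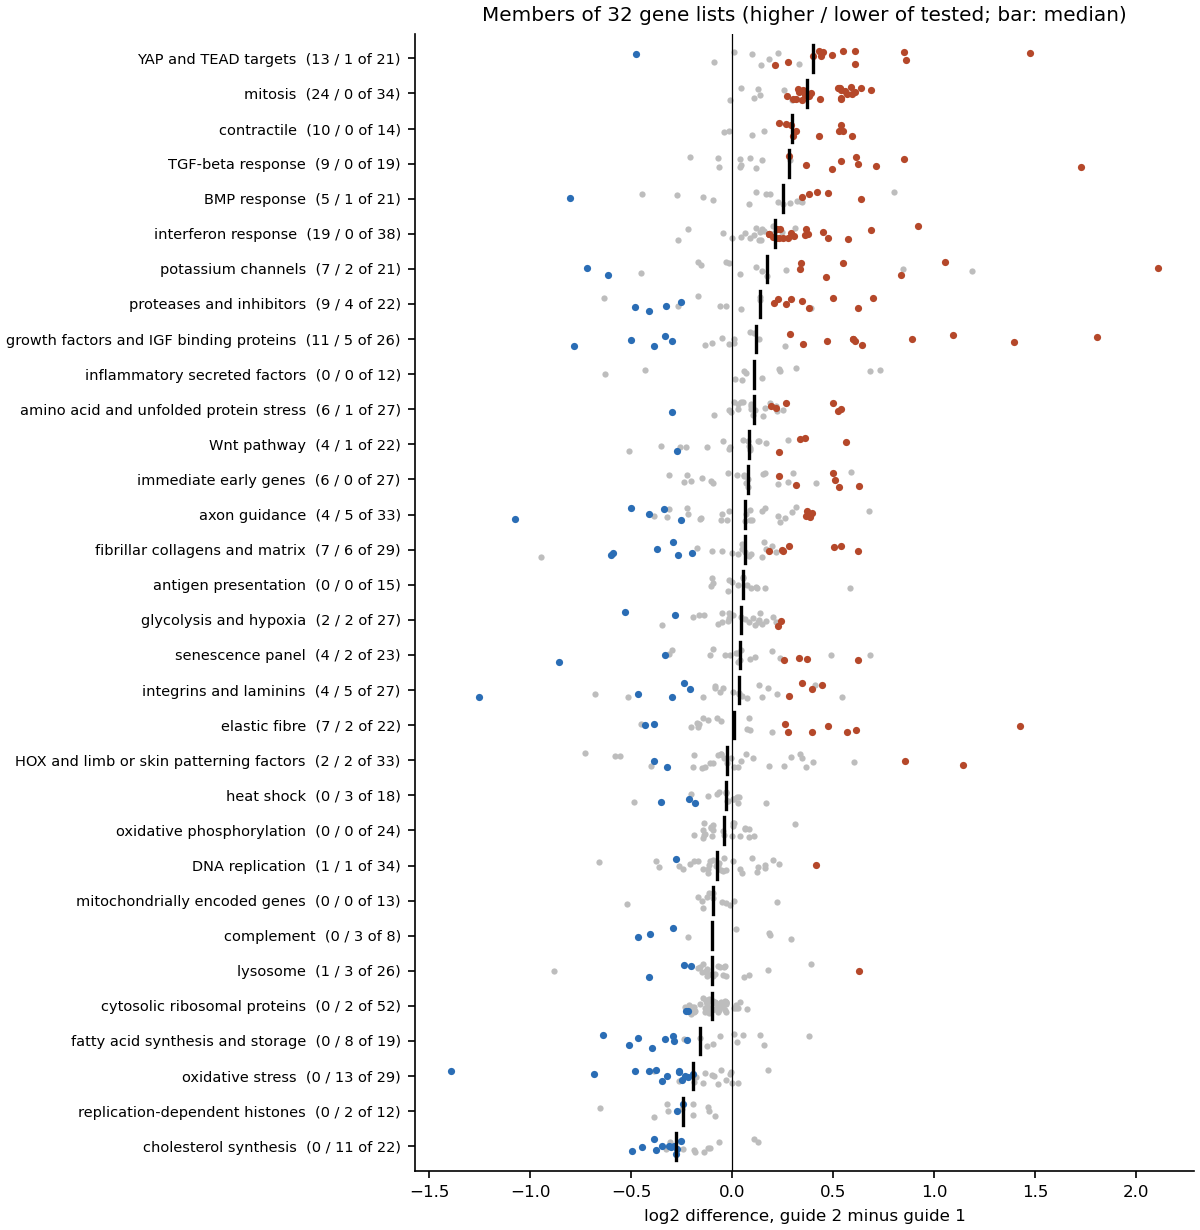
Log2 differences (guide 2 minus guide 1, x axis) of the tested members of 32 gene lists, ordered by median (black bar), with called members in red (higher) or blue (lower), others in grey, and counts beside each name. YAP and TEAD targets (13 of 21 higher), mitosis (24 of 34) and contractile genes (10 of 14) lie to the right, and cholesterol synthesis (11 of 22 lower) lies to the left.

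Secreted growth regulators differed in both directions. Of 26 growth factors and IGF binding proteins 11 were higher and 5 lower with guide 2. IGFBP2, which binds insulin-like growth factors, measured 10.3, 9.67 and 9.50 CPM with guide 1, 34.0, 35.1 and 34.4 CPM with guide 2 and 27.2 to 33.1 CPM with sgCtrl. Guide 1 alone was low, and guide 2 was 3.50-fold higher (1.81 ± 0.0990, adjusted p = 3.44e-14). IGF2, an insulin-like growth factor whose gene overlaps a neighbour, showed another order, at 5.91, 5.39 and 6.62 CPM with guide 1, 15.3, 15.4 and 16.4 CPM with guide 2 and 6.97 to 7.86 CPM with sgCtrl (1.40 ± 0.128). IGFBP3 rose from 844, 827 and 841 to 1273, 1209 and 1346 CPM (0.61 ± 0.0578). IGFBP5, among the most abundant transcripts of these cells, measured 7580, 7017 and 7410 CPM with guide 1 against 9183, 9419 and 9469 CPM with guide 2, both below sgCtrl (0.35 ± 0.0597, adjusted p = 0.000107). GAS6, a ligand of the AXL receptor, was higher by 0.60 ± 0.0647.

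Matrix genes divided as well. Of 29 collagen and matrix genes 7 were higher and 6 lower, of 22 elastic fibre genes 7 were higher and 2 lower, and of 22 proteases and inhibitors 9 were higher and 4 lower. COL15A1, a collagen of basement membrane zones, and the fibrillar COL11A1, which overlaps a neighbour, were higher by 0.50 ± 0.0586 and 0.54 ± 0.0660. The proteoglycan BGN fell from 156, 155 and 138 to 95.5, 97.4 and 106 CPM (-0.59 ± 0.0640), and TNC, the matricellular tenascin C, from 767, 746 and 754 to 510, 491 and 494 CPM (-0.60 ± 0.0668). MFAP5, a microfibril protein, rose from 9.24 to 11.4 CPM with guide 1 to 27.4 to 27.6 CPM (1.42 ± 0.113). LOX, which cross-links collagen and elastin, was higher by 0.47 ± 0.0569. Among proteases, ADAMTS5 and MMP3, which cut aggrecan and other matrix proteins, were higher by 0.70 ± 0.0843 and 0.50 ± 0.0617, and the cathepsin CTSK was lower by -0.41 ± 0.0607. The elastic fibre count of lower genes was 6 without sgCtrl replicate 1, 4 without sgCtrl replicate 3 and 1 without guide 1 replicate 3 or guide 2 replicate 1, and the higher count was 4 of 18 without overlapping members.

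KRT7 and KRT18, keratins of simple epithelia, and ALDH1A1, a retinoid enzyme, had the smallest adjusted p-values of all genes, and the keratins other than KRT81 were chosen after their values were seen. Keratins are the intermediate filaments of epithelial cells, and fibroblasts are better known for vimentin. KRT7, which overlaps a neighbour, measured 81.8, 72.6 and 83.1 CPM with guide 1, 311, 297 and 327 CPM with guide 2 and 39.0 to 46.1 CPM with sgCtrl. The 3 groups did not overlap, and guide 2 was 3.94-fold over guide 1 (1.98 ± 0.0682, adjusted p = 2.79e-19). KRT18 had the same order at 77.0, 75.2 and 75.1 CPM, 254, 256 and 284 CPM, and 38.4 to 46.9 CPM (1.80 ± 0.0679). Its filament partner KRT8 was higher by 0.93 ± 0.108, and its annotated span on the minus strand reaches into KRT18 on the plus strand.

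KRT19, on another chromosome, was below the 191 to 257 CPM of sgCtrl with both guides, and measured 83.3, 79.6 and 87.1 CPM with guide 1 against 143, 135 and 150 CPM with guide 2 (0.77 ± 0.0813 between guides). In the keratin cluster of chromosome 12, between KRT80 and KRT18 (chr12:52168996-52952906), 53 genes are annotated and 7 could be tested, of which 5 were higher with guide 2 and 0 lower. The other called members, KRT4 and KRT81, a hair keratin, were rare, at 0.436 to 0.622 and 0 to 0.389 CPM with guide 1. The pattern did not extend to a keratinocyte profile in the markers at hand. KRT14 and KRT1 had 0 counts and KRT5 had 1 count in 9 libraries. The summed keratinocyte markers were 200.02 to 210 CPM with guide 1, 250.2 to 275 CPM with guide 2 and 223 to 288 CPM with sgCtrl. Guide 2 thus lay within the range of sgCtrl and guide 1 below it. Most of the sum was DSP, a desmosome protein (0.38 ± 0.0740). CDH1, the epithelial cadherin, which overlaps a neighbour, stood at 0.523 to 0.856 CPM and 1.33 to 2.23 CPM (1.26 ± 0.374, adjusted p = 0.0282), and did not pass with DESeq2 (adjusted p = 0.0949) or without guide 1 replicate 2, guide 1 replicate 3 or guide 2 replicate 1. The part of these markers in the keratin result was not tested.

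ALDH1A1, which makes retinoic acid from retinal, measured 363, 348 and 340 CPM with guide 1, 1087, 1062 and 1116 CPM with guide 2 and 143 to 149 CPM with sgCtrl. It was 3.11-fold higher with guide 2 (1.64 ± 0.0565, adjusted p = 2.79e-19), with no overlap among the 3 groups. Other genes of retinoid metabolism, all but DHRS3 chosen after their values were seen, went both ways. DHRS3, a retinal reductase that overlaps a neighbour, was below sgCtrl with guide 1 and above it with guide 2, at 28.2, 27.2 and 29.4 CPM, 74.8, 73.9 and 72.9 CPM, and 36.9 to 48.2 CPM with sgCtrl (1.39 ± 0.0816). The retinoic acid hydroxylase CYP26B1 and the retinoid-responsive RARRES1 were higher by 1.79 ± 0.333 and 1.73 ± 0.425, from levels of 0.261 to 1.51 and 0.311 to 0.523 CPM. CRABP2, a carrier of retinoic acid, was lower by -0.35 ± 0.0865 (adjusted p = 0.0115), a call lost without guide 1 replicate 1 or 2 or guide 2 replicate 1 or 3. The receptor RARB (0.44, adjusted p = 0.231) and ALDH1A3 (-0.21, adjusted p = 0.519), both overlapping, missed the threshold.

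**Figure D4:**
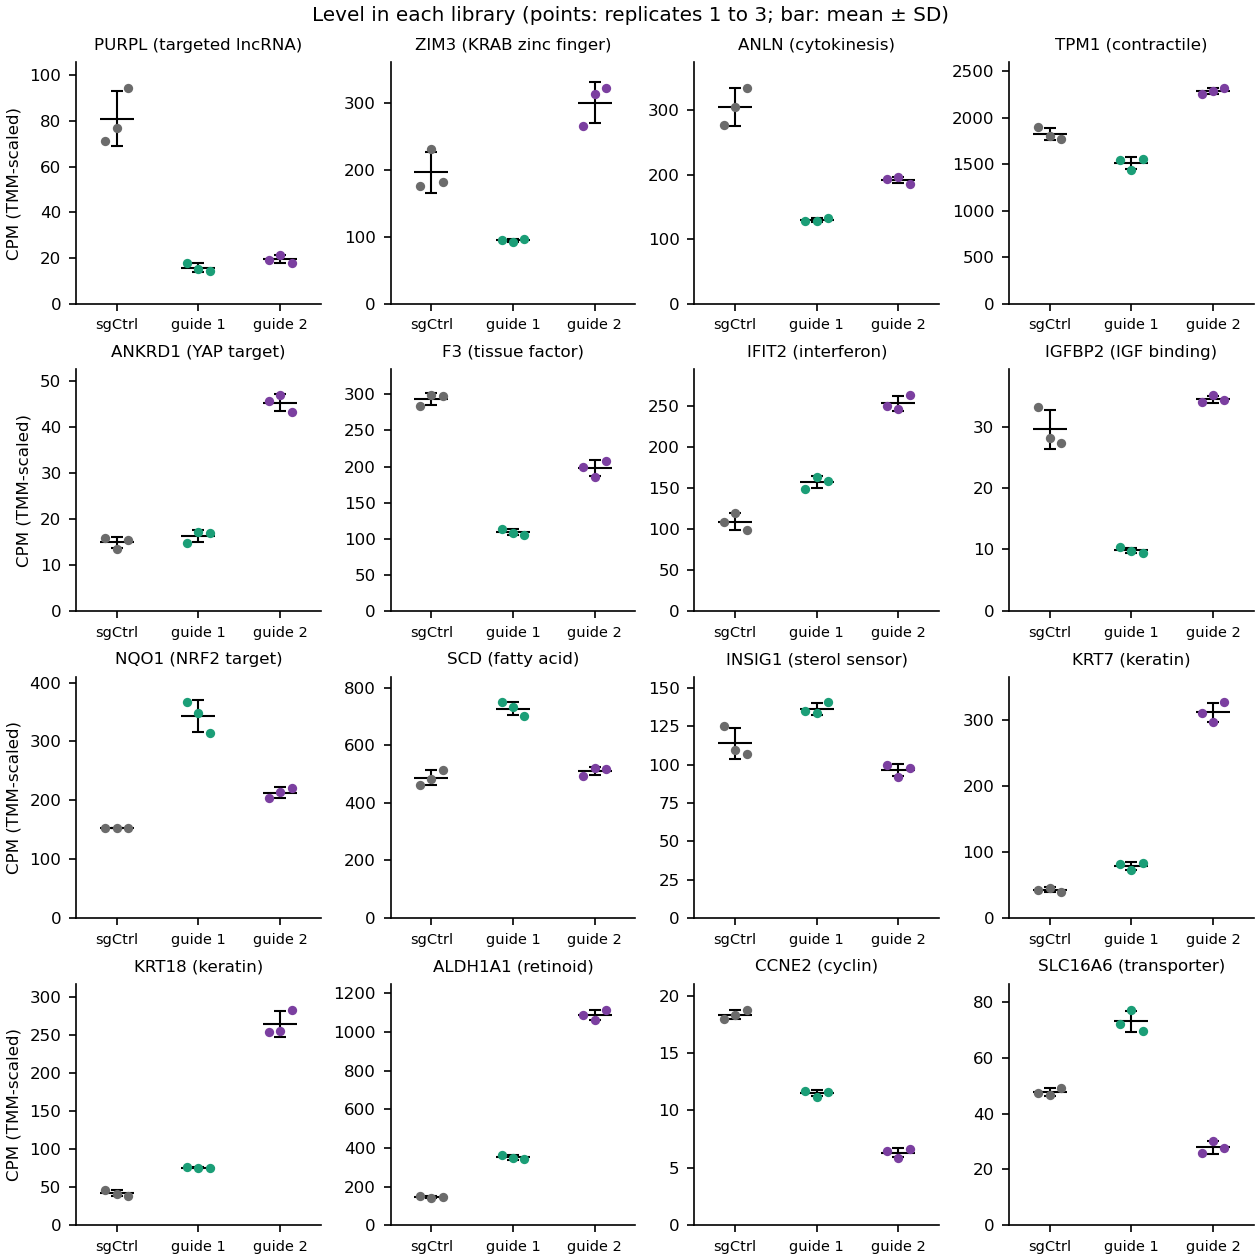
Level in CPM (y axis from 0) of 16 genes in the 3 sgCtrl, 3 guide 1 and 3 guide 2 libraries (points), with mean and SD (bars). PURPL is low with both guides, SCD is high with guide 1 alone, ANKRD1 is high with guide 2 alone, and ZIM3 and SLC16A6 lie on opposite sides of sgCtrl.

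The largest differences belonged to rare transcripts. FGF9, a fibroblast growth factor, measured 0, 0.0792 and 0.261 CPM with guide 1 against 1.40, 1.59 and 1.10 CPM with guide 2, that is 4 and 50 counts over 3 libraries each. The ratio was 12.6 with an exact binomial interval of 4.61 to 47.9 at 95%, which covers counting error only. TNFSF15, a TNF family cytokine, followed with 11 and 97 counts (ratio 8.85, interval 4.74 to 18.3). NXF3, an RNA export factor, rose from 0.856, 0.396 and 0.523 to 4.21, 3.78 and 4.85 CPM (2.83 ± 0.327), and ACKR3, an atypical chemokine receptor, from 0.389, 1.43 and 1.05 to 4.87, 4.70 and 4.15 CPM (2.26 ± 0.321).

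In other rare genes the departure from sgCtrl lay with guide 1. KISS1, the precursor of kisspeptin, measured 0.311, 0.555 and 0.697 CPM with guide 1 against 2.89, 3.11 and 2.58 CPM with guide 2, and sgCtrl stood at 3.12 to 3.76 CPM (2.45 ± 0.322). PALMD had a like order, at 1.87, 0.555 and 1.05, 5.12, 5.20 and 6.65, and 5.81 to 6.46 CPM (2.28 ± 0.259). HCLS1, an actin regulator of blood cells that overlaps a neighbour, was high with guide 1 at 9.67 to 10.7 CPM against 3.88, 2.77 and 3.68 CPM with guide 2 and 2.02 to 3.38 CPM with sgCtrl (-1.55 ± 0.173). ADAM23 was likewise high with guide 1, at 4.98, 4.12 and 5.40 CPM against 1.82, 1.59 and 1.96 CPM (-1.42 ± 0.225). Of the 10 largest lower differences among genes with a symbol, 6 more, in TTC6, SST, VAV3, FSIP2, C3orf80 and AKR1B10, lay between -2.31 and -1.39, from levels of at most 4.62 CPM in any guide 1 library. TTC6 overlaps a neighbour. AKR1B10 was not called with DESeq2 (adjusted p = 0.0848) or when any library of either guide other than guide 1 replicate 1 was left out, SST not without guide 1 replicate 2, and FSIP2 not without replicate 3 of either guide.

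A transcript known only by its identifier had the lowest value of all called genes and was chosen after its values were seen. ENSG00000234810, an annotated long noncoding RNA of chromosome 1 that overlaps a neighbour, measured 4.05, 3.80 and 3.22 CPM with guide 1 against 0.165, 0.252 and 0.0783 CPM with guide 2 (-4.42 ± 0.434, adjusted p = 1.33e-08). It held 137 counts with guide 1, 6 with guide 2 and 2 with sgCtrl, and every guide 1 library lay above every other.

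Some genes passed against sgCtrl in opposite directions with the 2 guides. SLC16A6, a transporter of monocarboxylates, measured 72.2, 77.4 and 69.8 CPM with guide 1, 25.8, 30.4 and 27.7 CPM with guide 2 and 46.8 to 49.2 CPM with sgCtrl (-1.39 ± 0.0754, adjusted p = 3.25e-14). PTPRQ, a phosphatase best known from hair cells of the ear, had the reverse order at 10.4, 10.4 and 10.9 CPM, 26.2, 30.9 and 27.9 CPM, and 17.7 to 22.9 CPM (1.42 ± 0.108). KC6, a long noncoding RNA, was higher with guide 1 and lower with guide 2, at 3.66 to 4.60 CPM with guide 1 and 1.03 ± 0.300 CPM (SD, n = 3) with guide 2, around 1.65 to 2.11 CPM in sgCtrl (-1.94 ± 0.267). DHRS3 and ZIM3, described above, complete the 5 largest of this kind.

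Adhesion, channel and guidance genes differed in part. Of 27 integrins and laminins 4 were higher and 5 lower (3 lower without guide 1 replicate 3 or guide 2 replicate 1), with ITGA8, an integrin subunit of mesenchymal cells, at 18.4, 22.8 and 19.8 CPM with guide 1, 8.26, 8.73 and 8.53 CPM with guide 2 and 5.20 to 5.72 CPM with sgCtrl (-1.26 ± 0.117). Of 21 potassium channels 7 were higher and 2 lower, with KCNK6, a background channel, higher by 1.05 ± 0.122. Without overlapping members the higher count was 2 of 12. Of 33 axon guidance genes 4 were higher and 5 lower, among them NTN4, a netrin (0.38 ± 0.0594), and SEMA3E, a semaphorin that overlaps a neighbour (-1.07 ± 0.164). The count of higher guidance genes was 2 with DESeq2 and without guide 1 replicate 2 or 3 or guide 2 replicate 3, and the lower count 8 without sgCtrl replicate 1. Of 21 BMP responsive genes 5 were higher and 1 lower, with FST, an antagonist of activins and BMPs, at 0.47 ± 0.0742. Of 27 immediate early genes 6 were higher and 0 lower, with the phosphatase DUSP1 at 0.63 ± 0.0780.

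The senescence panel, a list of cell cycle inhibitors, E2F genes and secreted factors, gave 4 higher and 2 lower of 23 tested. Besides MKI67 and CCNE2, the CDK inhibitors CDKN1B (0.26 ± 0.0711) and CDKN2C (0.37) were higher and GDF15, a stress cytokine that overlaps a neighbour, was lower (-0.33 ± 0.0691). The call of CDKN1B ended without guide 1 replicate 2 or guide 2 replicate 1 or 3, and that of CDKN2C with DESeq2 (adjusted p = 0.0548) and without guide 1 replicate 1 or 2 or guide 2 replicate 2 or 3. CDKN1A, which encodes the CDK inhibitor p21, measured 217, 229 and 231 CPM with guide 1 against 241, 220 and 237 CPM with guide 2 and missed the threshold (0.05, adjusted p = 0.742). CDKN2A, the locus of p16, stood at 5.70 ± 0.431 and 5.76 ± 0.466 CPM (SD, n = 3 each; 0.02, adjusted p from edgeR 0.972). The panel's higher count was 2 without guide 1 replicate 1 or guide 2 replicate 2 and 1 without guide 1 replicate 2 or guide 2 replicate 3.

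Complement genes gave 3 lower of 8, and 0 of 2 without overlapping members. Of 27 genes of amino acid and unfolded protein stress 6 were higher (2 without guide 2 replicate 3) and 1 lower. Of 22 Wnt pathway genes 4 were higher and 1 lower. Of 12 replication-dependent histones 2 were lower, and 0 with DESeq2. Of the remaining groups, some had no calls. All 24 oxidative phosphorylation genes tested missed the threshold (0 at an unadjusted p under 0.05, 0 with DESeq2), as did the 13 mitochondrially encoded genes (2 at an unadjusted p under 0.05, 0 with DESeq2). Beside 9.25% of all genes, 0 calls in lists this small are not read as a difference. Of 52 cytosolic ribosomal protein genes 2 were lower (3.85%, beside 3.74% of all genes, median -0.10). The ribosomal count was 12 when sgCtrl was left out of the fit, 10 without sgCtrl replicate 1 and 6 without sgCtrl replicate 3. It was 0 without sgCtrl replicate 2, guide 1 replicate 1 or 3 or guide 2 replicate 1 or 2. Small numbers passed in 4 other lists, with shares of 12.1% to 16.7% beside the 9.25% of all genes. With 3 or 4 calls in each list, these shares were not tested and are not read as a difference from all genes. Of 26 lysosomal genes 1 was higher and 3 lower, the latter 7 with only the 6 guide libraries and 1 without guide 1 replicate 2 or 3 or guide 2 replicate 3. Of 27 genes of glycolysis and hypoxia 2 were higher and 2 lower, the former 6 with only the 6 guide libraries, 5 without sgCtrl replicate 1, 4 without sgCtrl replicate 3, 1 without guide 1 replicate 3 or guide 2 replicate 2 or 3, and 0 without overlapping members. Of 18 heat shock genes 3 were lower, but 0 without guide 1 replicate 3 or guide 2 replicate 2, and 1 without guide 1 replicate 1, guide 2 replicate 3 or overlapping members. Of 33 HOX and patterning genes 2 were higher and 2 lower, the former 0 without replicate 1 of either guide and 1 without guide 1 replicate 2 or 3. Differences were spread over the genome. Among chromosomes with at least 100 genes tested the median ran from -0.05 on chromosome 6 to 0.03 on chromosome 7, and the share called from 3.57% on chromosome 16 to 12.1% on chromosome 13.

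The overexpression table shares no library with the guides and gives the same genes in the lines labelled as overexpressing PURPL. Of the 767 genes higher with guide 2, 749 were tested there. In PURPL#1-OE 37.5% of them were higher and 34.3% lower than Ctrl, and in PURPL#2-OE 26.3% were higher and 41.8% lower, against 19.5% and 20.1%, and 18.9% and 19.6%, of all genes tested. Of the 521 genes lower with guide 2, 516 were tested, and 25.4% were higher and 36.8% lower in PURPL#1-OE, 32.9% and 28.9% in PURPL#2-OE. Genes that differed between guides were called under overexpression more often than the 39.6% and 38.5% of all genes, in both directions, and the share was not tested. All genes were not matched to the called genes for level or scatter, so no link to PURPL overexpression is read from these shares. ALDH1A1 moved in opposite directions there (0.57 in PURPL#1-OE, -0.24 in PURPL#2-OE), KRT7, which overlaps a neighbour, likewise (0.73 and -0.27), and IGFBP2 rose in both (1.20 and 1.76).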

How the data were processed

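RNA of BJ fibroblasts was selected for poly(A) and sequenced, and the authors deposited raw counts per gene in 1 table for knockdown and 1 for overexpression (9 libraries each). Per the submitters' processing notes, the tools were FastQC 0.11.9, cutadapt 3.3, HISAT2 2.1.0, SAMtools 1.11, featureCounts 2.0.1 and DESeq2 1.34.0, on hg38. For the annotation release, the strand setting and overlaps, the choice made is not given in the sources used here. No molecular identifiers are described, so intervals cover counting error only. Genes passing edgeR's filterByExpr were fitted over all 9 knockdown libraries with TMM scaling and edgeR's quasi-likelihood test (edgeR 4.0.16, R 4.3.3), checked on simulated data. P-values were adjusted by Benjamini-Hochberg over all genes tested, with a threshold of 0.05. Levels are TMM-scaled CPM computed from the counts.

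The genes, lists and alternatives were chosen with earlier results of these data known. The named genes are the 10 largest differences in each direction among called protein-coding genes and lncRNAs with a symbol, libraries that do not overlap and 1 CPM or more in the higher guide, up to 4 called members of each list with the smallest adjusted p, the 5 largest differences in CPM in each direction, the 5 largest among genes with opposite directions against sgCtrl, PURPL and the senescence panel. Members that missed the threshold are named as such, and some genes and 1 list are not reported here. The retinoid genes other than ALDH1A1 and DHRS3, the keratins other than KRT81, CDH1, DSP and ENSG00000234810 were chosen after their values were seen. Alternatives were DESeq2 1.42.0, RLE scaling, no filter, the guide libraries alone, a replicate block, leaving out each library and leaving out overlapping genes.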

Additional observations from a re-analysis of the deposited data

Results flagged for a closer look

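The 5 genes here had the largest guide differences among genes called between guides and called against sgCtrl in opposite directions. These calls, by edgeR's quasi-likelihood test, were the rule of choice and add no support. On the log2 scale, the difference, guide 2 minus guide 1, was -1.94 for KC6, 1.67 for ZIM3, 1.42 for PTPRQ, -1.39 for SLC16A6 and 1.39 for DHRS3, which overlaps a neighbour on its strand. The difference between guides kept its direction and its call in all 5 when any 1 library was left out.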

How the results depend on the processing

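The counts of 767 higher and 521 lower genes were 646 and 416 with DESeq2, 775 and 516 with RLE scaling, and 753 and 610 without the filter. With only the 6 guide libraries they were 1090 and 811, and without sgCtrl replicate 1 they were 1043 and 712. The sgCtrl libraries enter the estimate of spread. Pearson's correlation among them was 0.993 to 0.995, against 0.995 to 0.996 between libraries of the same guide. Leaving out 1 library gave 544 to 1043 higher and 337 to 712 lower (337 without guide 1 replicate 3), and 103 to 140 and 33 to 45 at 2-fold or more. Without overlapping genes, 9452 genes were tested in place of 13923, and 26 were at least 2-fold lower. That count is therefore over a smaller set of genes. The difference in PURPL, 0.30, passed with only the 6 guide libraries (0.30), without sgCtrl replicate 1 (0.31) and without sgCtrl replicate 3 (0.30), and ranged from 0.23 to 0.41 without 1 library.

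A replicate block gave 722 higher and 482 lower genes, 119 and 41 of them at 2-fold or more, and 0.30 for PURPL (adjusted p = 0.154). Deviations of same-numbered guide libraries correlated at -0.0909, 0.000354 and -0.0698, and those of differently numbered pairs at -0.0393 to 0.107. The labels do not say what same-numbered libraries share beyond the number.

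Near-zero differences changed sign when 1 library was left out. CDKN2A ranged from -0.0405 (without guide 2 replicate 1) to 0.0783 and was -0.0191 without guide 1 replicate 1. CDKN2B was -0.10 without guide 2 replicate 3, up to 0.154. E2F7 ranged from -0.0655 (without guide 2 replicate 2) to 0.100, RB1 from -0.0710 to 0.0172 (without guide 1 replicate 3) and E2F1 from -0.0235 (without guide 1 replicate 1) to 0.342. Depth limits the rarest genes, as the wide counting interval of FGF9 shows.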
